A study of Mus musculus with 2 samples.

Results

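The 9 astrocyte genes followed here in hippocampal RNA were Slc1a2, Slc1a3, Glul, Aqp4, Kcnj10, Gja1, Gjb6, Slc4a4 and Aldh1l1. Most serve the handling of glutamate, potassium or water, while Slc4a4 carries bicarbonate and Aldh1l1 is a folate enzyme used as an astrocyte marker. The genes were picked by symbol for their known roles, not by a rule on measured values, though at a time when earlier results of these data were known. All 9 of 9 symbols were found, each as 1 row among 55536 annotated genes. The tissue, labelled as layer of hippocampus, came from male B6CASTF1/J mice, the F1 hybrids of C57BL/6J and CAST/EiJ, aged 18 to 20 months and supplied by The Jackson Laboratory. The 2 libraries, replicate 1 and replicate 2, form the only group, and each was made from 300 ng of total RNA with ERCC spike-ins, synthetic RNAs of known amount. The labels number them as biological replicates, but both share a donor record, and neither pooling of tissue nor the number of mice is stated. Whether the spread between them is one between mice or technical therefore cannot be told. No treatment, transgene or second age or strain enters the design, so no gene could be compared between conditions and no p-values are given.

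Astrocytes take up the glutamate that neurons release, through sodium-driven transporters in their membrane, and turn it into glutamine, which neurons take back as a precursor of new glutamate. The potassium that active neurons release enters astrocytes through inward-rectifier channels and spreads through a network of cells joined by gap junctions. Water channels gather on astrocyte endfeet around blood vessels, and a sodium bicarbonate cotransporter links neuronal activity to the pH of the astrocyte and its surroundings.

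The coding sequences of Slc1a2 and Slc4a4 differ between annotated transcripts at their ends, and these ends are what separates the forms counted below. Sequences are from the GENCODE M21 transcripts, on the mm10 assembly, written 5′ to 3′. Slc1a2 lies on chromosome 2 from 102658659 to 102790784 on the plus strand. Its transcripts Slc1a2-202 and Slc1a2-203 begin their coding sequence differently and run on alike, as their first 60 coding bases show. Capitals mark the bases before the point from which they run alike.
Slc1a2-202, start: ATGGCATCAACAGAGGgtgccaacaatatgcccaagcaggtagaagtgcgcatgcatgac
Slc1a2-203, start: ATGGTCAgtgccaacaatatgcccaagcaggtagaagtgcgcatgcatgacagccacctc
At the other end Slc1a2-202 and Slc1a2-201 share bases up to the same point and then differ, and the capitals in their last 90 coding bases before the stop codon mark the part that differs.
Slc1a2-202, end: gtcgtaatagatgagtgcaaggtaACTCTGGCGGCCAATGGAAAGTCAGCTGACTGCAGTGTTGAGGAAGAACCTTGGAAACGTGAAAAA
Slc1a2-201, end: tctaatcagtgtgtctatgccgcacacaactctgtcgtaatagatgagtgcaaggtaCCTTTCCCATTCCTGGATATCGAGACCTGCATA
The ending of Slc1a2-202 is that of the variant known as GLT-1a, and the ending of Slc1a2-201 that of GLT-1b, which can bind proteins with PDZ domains.

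Slc4a4 lies on chromosome 5 from 88886818 to 89239653 on the plus strand. Near the end of its coding sequence Slc4a4-207 holds 97 bases, in capitals here, that Slc4a4-208 lacks.
Slc4a4-207: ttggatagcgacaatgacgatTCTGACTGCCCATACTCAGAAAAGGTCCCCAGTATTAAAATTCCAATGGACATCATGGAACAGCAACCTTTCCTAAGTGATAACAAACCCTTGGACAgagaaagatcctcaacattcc
Slc4a4-208: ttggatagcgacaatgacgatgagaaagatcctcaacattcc
Since 97 leaves a remainder of 1 when divided by 3, the reading frame shifts. The forms share 1033 codons, after which Slc4a4-207 codes for 46 further residues and Slc4a4-208 for 61. A transcript with an internal start, Slc4a4-203, begins with other coding bases than Slc4a4-207, again in capitals up to the shared part.
Slc4a4-207, start: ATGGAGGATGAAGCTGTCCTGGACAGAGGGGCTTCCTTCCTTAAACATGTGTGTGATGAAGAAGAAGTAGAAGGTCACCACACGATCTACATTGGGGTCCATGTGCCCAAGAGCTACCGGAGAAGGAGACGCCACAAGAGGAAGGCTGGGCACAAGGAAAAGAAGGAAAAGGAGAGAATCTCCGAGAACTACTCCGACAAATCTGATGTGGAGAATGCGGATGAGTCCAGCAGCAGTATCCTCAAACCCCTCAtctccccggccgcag
Slc4a4-203, start: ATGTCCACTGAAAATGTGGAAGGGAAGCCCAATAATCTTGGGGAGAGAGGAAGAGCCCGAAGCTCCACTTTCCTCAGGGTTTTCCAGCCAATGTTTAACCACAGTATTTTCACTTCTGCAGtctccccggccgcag
These forms are known as NBCe1-B (Slc4a4-207), NBCe1-C (Slc4a4-208), which was described in brain, and NBCe1-A (Slc4a4-203), the main form of the kidney.

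All 9 genes were detected in both libraries, and their levels spanned 15.1 to 834.1 TPM. TPM, which expresses abundance relative to all transcripts, is corrected for transcript length, so levels of different genes can be compared. The median of the 9 was 50.56 TPM in replicate 1 and 51.12 TPM in replicate 2. Over the 22015 protein-coding nuclear genes the median was 3.12 TPM, and over the 12660 of them with at least 1 TPM in both libraries it was 14.6 TPM. Together the 9 genes summed to 1954.52 and 2021.91 TPM, which was 0.480% and 0.476% of the TPM of protein-coding nuclear genes. Glul and Slc1a2 held 77.3% of that sum in replicate 1 and 77.1% in replicate 2. In order of level, the genes ran Glul, Slc1a2, Slc1a3, Gja1, Slc4a4, Gjb6, Aqp4, Kcnj10 and Aldh1l1, and the values of neighbours in this order did not overlap. In a tissue sample, more cells of a type and more RNA per cell cannot be told apart. Likeness of pattern to other genes was not measured, because 2 libraries give no pattern across samples.

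**Figure D1:**
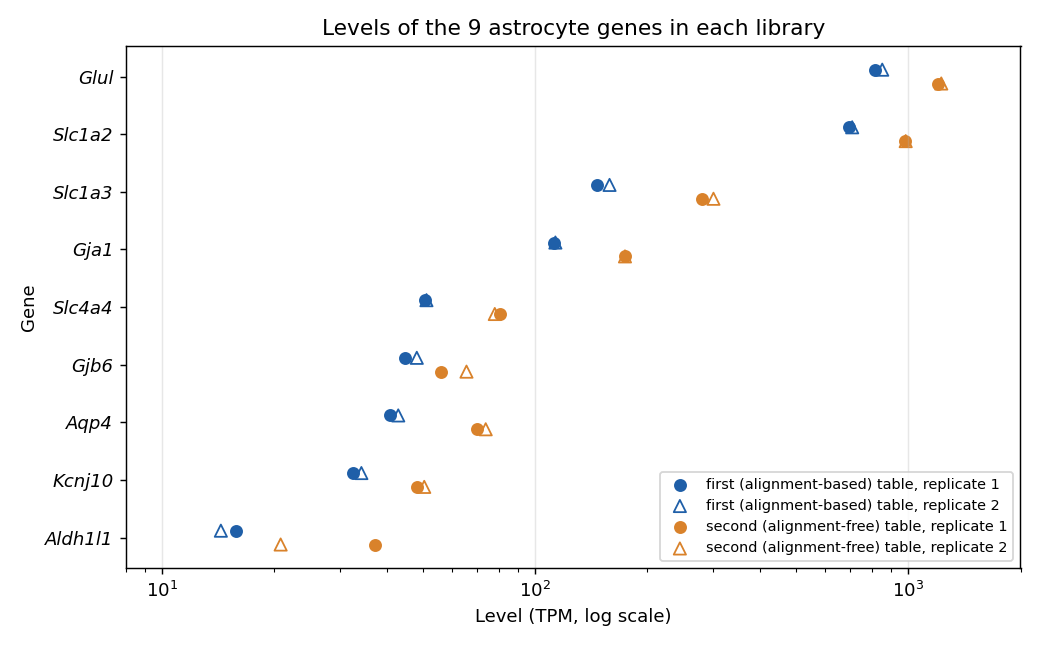
Level of each of the 9 genes in TPM (log axis) in replicate 1 (filled circles) and replicate 2 (open triangles), from the first, alignment-based table (blue) and the second, alignment-free table (orange). Glul and Slc1a2 lie apart from the other 7 genes in both tables. Every gene is higher in TPM in the second table, where protein-coding nuclear genes take more of all TPM.

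Each library had been quantified by the authors in 2 ways, once from reads aligned to the transcriptome, which gives the levels above, and once from the reads directly, called the second table here. Levels in the second table were 1.30 to 1.92 times those in the first. Protein-coding nuclear genes took 41.0% and 42.9% of all TPM in the first table and 70.1% and 73.0% in the second. As a share of the TPM of those genes, the sum of the 9 was lower in the second table. It was 0.417% and 0.408% there, against 0.480% and 0.476% in the first. Slc1a3 went the other way, at 399 and 412 TPM rescaled over those genes against 359 and 372 TPM. The order of the genes was the same in both tables except that Aqp4 stood above Gjb6 in the second, at 69.8 and 73.7 TPM against 55.8 and 65.4 TPM.

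Slc1a2 codes for GLT-1, the main glutamate transporter of astrocytes in the adult forebrain. Its level was 694.98 TPM in replicate 1 and 707.64 TPM in replicate 2, a mean of 701 ± 8.95 TPM (SD, n = 2), which was rank 28 among the protein-coding nuclear genes. Slc1a3 codes for GLAST, the second glutamate transporter of astrocytes, and lies on chromosome 15 from 8634124 to 8710764 on the minus strand. It stood at 146.29 and 158.26 TPM (152 ± 8.46 TPM, rank 429). Both libraries thus had several times more Slc1a2 than Slc1a3. The ratio in TPM was 4.75 in replicate 1 and 4.47 in replicate 2 (4.61 ± 0.198). The second table gave a lower mean ratio of 3.39. Expected counts, which are not corrected for length, gave 10.6, since Slc1a2-202 is 11595 bases long and Slc1a3-201 is 4163 bases long.

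Among the other 5 genes of the SLC1 family, 3 had at least 1 TPM in both libraries and the median was 5.19 TPM. Slc1a1, the neuronal glutamate transporter EAAC1, was the highest at 53.87 and 53.72 TPM. Slc1a4, a transporter of neutral amino acids, stood at 14.61 and 16.36 TPM, and Slc1a6, the transporter EAAT4 known from Purkinje cells, at 5.41 and 4.96 TPM. The lowest was Slc1a7, with 2 and 3 counts and 0.04 TPM in each library. Both astrocyte transporters therefore lay above every other member of the family.

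Most of the Slc1a2 level sat on the form of 572 amino acids, Slc1a2-202, which held 69.3% of the gene's TPM in replicate 1 and 71.5% in replicate 2 (70.4% ± 1.52). In the second table it held 77.5% and 80.8%. Slc1a2-203, the form of 569 amino acids with the alternative start printed above, held 8.16% and 8.02%, and 8.11% and 7.70% in the second table. Slc1a2-201, of 558 amino acids, held 3.95% and 5.51%, and 5.37% and 5.71% in the second table. The form of 561 amino acids, Slc1a2-204, held 2.00% and 0.516%, and almost none in either library of the second table.

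Grouped by their ends, the complete Slc1a2 forms with the start of Slc1a2-202 held 71.3% and 72.0% of the gene's TPM, and those with the start of Slc1a2-203 held 12.1% and 13.5%. Slc1a2-202 is annotated to 102790784, but Slc1a2-203, with the same coding end, only to 102781743. Reads from beyond that point can only be assigned to the start of Slc1a2-202, so these shares do not settle how often each start was used. Forms with the GLT-1a ending held 77.5% and 79.5%, against 5.95% and 6.03% for the GLT-1b ending. The order of both pairs was the same in each library and each table: the second table gave 5.38% and 5.71% for the GLT-1b ending. Reads assigned to that ending came to 2094 and 1992 expected counts, out of 144800 and 139424 for the gene. Outside the complete forms, the incomplete 510-base transcript Slc1a2-205 held 12.2% and 10.7% of the TPM on 873 and 717 counts, and 2.41% and 0.829% in the second table. It begins at 102706356, in a first exon of its own that ends at 102706384, just before the first exon of Slc1a2-203 and Slc1a2-201 at 102706438, and is counted with neither start here.

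Glul codes for glutamine synthetase, which joins glutamate and ammonia to glutamine, and lies on chromosome 1 from 153899944 to 153909723 on the plus strand. It was the highest of the 9, with 816.29 TPM measured in replicate 1 and 851.91 in replicate 2 (834.1 ± 25.2 TPM), which was rank 17. The TPM of Slc1a2 was 0.851 of that of Glul in replicate 1 and 0.831 in replicate 2 (0.841 ± 0.0147). By expected counts the order was the other way round, with 3.24 times as many counts for Slc1a2, the longer gene. Glul-201, the form of 373 amino acids, held 78.9% and 78.7% of the gene's TPM and 97.2% of its expected counts in each library. The next transcript differed between the tables. Glul-203, an incomplete transcript of 379 bases, held 19.4% and 19.8% of the TPM in the first table on 1113 and 1090 counts, and was listed at 0 in the second. There Glul-202, another incomplete transcript, stood at 211 and 185 TPM, while the first table listed it at 0.

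Of the 11 other genes of the glutamate and glutamine cycle, 10 had at least 1 TPM in both libraries, with a median of 32.5 TPM. Got1, the cytosolic aspartate aminotransferase, led at 147.6 and 161.22 TPM. Glud1, glutamate dehydrogenase, stood at 116.75 and 122.47 TPM. The lowest was the glutamine transporter Slc38a5, at 0.84 and 1.09 TPM. Glul was more than 5 times as high as any of these genes.

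Kcnj10 codes for Kir4.1, the inward-rectifier potassium channel of astrocytes, and lies on chromosome 1 from 172341210 to 172374085 on the plus strand. Its level was 32.55 TPM in replicate 1 and 34.21 TPM in replicate 2 (33.4 ± 1.17 TPM, rank 3069), with 48.3 and 50.4 TPM in the second table. It is the only one of the 9 genes with a single annotated transcript, so no division between transcripts enters its level. Kcnj16 codes for Kir5.1, which can pair with Kir4.1 in a mixed channel. Kcnj16 stood at 7.44 and 9.96 TPM, so the ratio of Kcnj10 to Kcnj16 was 4.38 in replicate 1 and 3.43 in replicate 2 (3.90 ± 0.665). Of the ratios computed here from first-table TPM this one had the widest relative spread between the libraries. In the second table that of Gja1 to Gjb6 was wider.

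All 9 of the other genes listed for potassium clearance were detected, with a median of 14.98 TPM. Atp1b2, a subunit of the sodium-potassium pump, stood at 158.61 and 160.02 TPM. Kcnk1, the potassium leak channel TWIK, stood at 30.67 and 34.52 TPM, close to Kcnj10. Kcnj12, another inward rectifier, was the lowest at 2.61 and 2.89 TPM. Atp1b2 was thus several times higher than Kcnj10, and the other potassium channels were close to it or below it.

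Aqp4 codes for the water channel of astrocyte endfeet and lies on chromosome 18 from 15389496 to 15410982 on the minus strand. It stood at 40.79 TPM in replicate 1 and 42.95 in replicate 2 (41.9 ± 1.53 TPM, rank 2374). The level of Kcnj10 was 0.798 of that of Aqp4 in replicate 1 and 0.797 in replicate 2. In expected counts Kcnj10 was the higher, at 1.29 times Aqp4, so which of them leads depends on the correction for length.

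Aqp4 makes proteins with different starts: the long form, known as M1, and the shorter M23, which assembles into the square arrays seen in endfoot membranes. The form of 323 amino acids, the length of M1, has 1 annotated transcript, Aqp4-201, of 5054 bases. It held 56.7% of the gene's TPM in replicate 1 and 58.2% in replicate 2. The form of 301 amino acids, the length of M23, has 7 annotated transcripts and held 42.7% and 36.8% (39.7% ± 4.11). The second table gave 53.8% and 53.6% for the long form and 45.0% and 43.9% for the short one (44.4% ± 0.773).

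Both tables and both libraries put the long Aqp4 form above the short one, and they did not place the short form on the same transcripts. In the first table Aqp4-205 held 14.64 and 12.36 TPM and Aqp4-210 held 2.76 and 3.46 TPM, while Aqp4-202 was listed at 0. In the second table Aqp4-202 held 25.4 and 24.3 TPM and Aqp4-210 held 4.94 and 8.07 TPM, and Aqp4-205 was listed at 0. By expected counts the long form held 86.3% and 87.1%, because its transcript is several times longer than those of the short form. The short form rested on 452 and 382 of 3335 and 3282 expected counts, and a protein of 301 amino acids translated from the longer transcript would not be seen in these values. At the 3′ end Aqp4-201 is annotated to 15389496, while the transcripts of the short form stop at 15393390 to 15393444. Reads from beyond can only be assigned to the long form, whatever start their RNA had. Both tables share this limit, so they do not settle which start was used more.

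**Figure D2:**
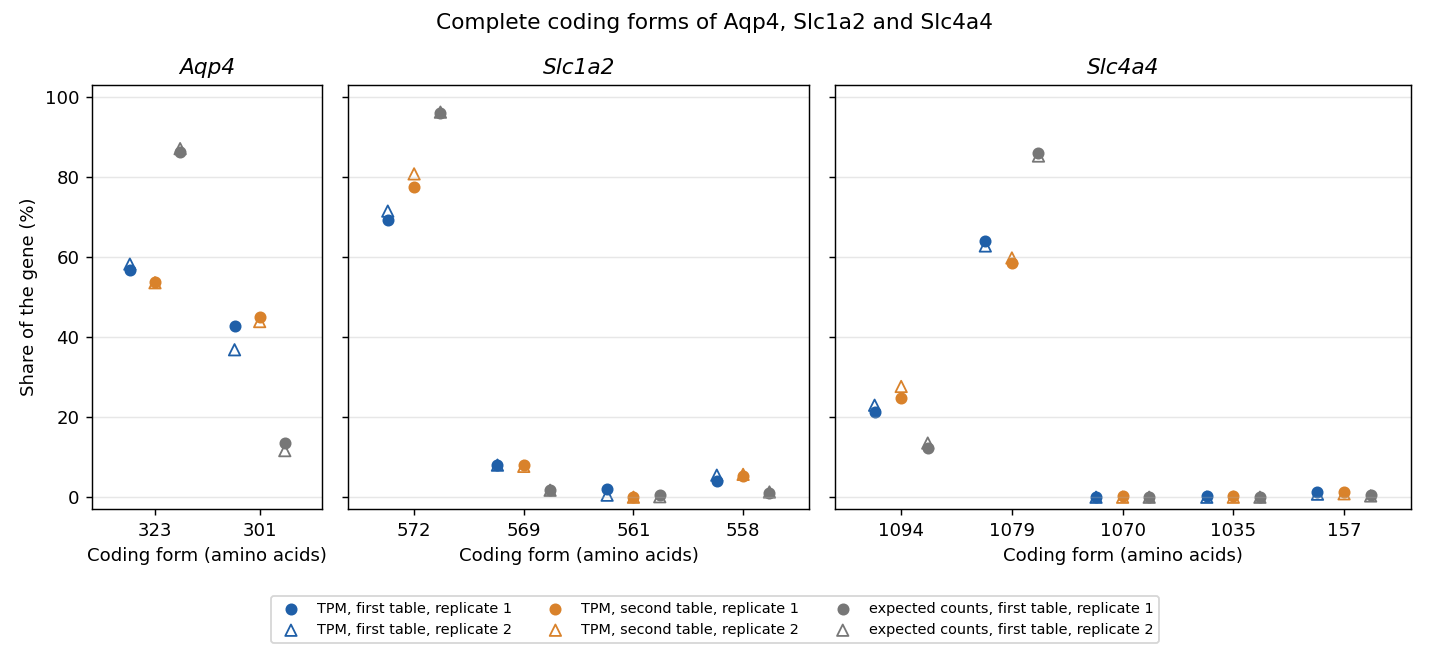
Share of each gene (%) held by its complete coding forms, named by protein length in amino acids, in replicate 1 (filled circles) and replicate 2 (open triangles), as TPM in the first (blue) and second table (orange) and as a share of the first table's counts (grey). One form leads in every panel, at 323 amino acids for Aqp4, 572 for Slc1a2 and 1079 for Slc4a4, and counts move its share up because its transcript is the longest.

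Of 14 genes listed for other water channels and endfoot anchoring, 12 were detected in both libraries, with a median of 26.3 TPM. Mlc1, an astrocyte membrane protein, led at 48.05 and 49.27 TPM, followed by Agrn, the proteoglycan agrin of the vascular basement membrane, at 47.49 and 47.07 TPM. Dtna, the dystrobrevin of the dystrophin complex that holds the water channel in place, stood at 46.34 and 46.54 TPM. These levels were close to that of Aqp4. The lowest by mean was Trpv4, a cation channel, at 0.52 and 1.53 TPM.

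Gja1 and Gjb6 code for connexin 43 and connexin 30, the gap junction proteins of astrocytes. Gja1 lies on chromosome 10 from 56377330 to 56402513 on the plus strand and stood at 112.34 TPM in replicate 1 and 113.29 in replicate 2 (113 ± 0.672 TPM, rank 678). Gjb6 lies on chromosome 14 from 57123303 to 57133611 on the minus strand and stood at 44.91 and 48.16 TPM (46.5 ± 2.30 TPM, rank 2085). Gja1 was 2.50 times as high as Gjb6 in replicate 1 and 2.35 times in replicate 2. Counting complete coding transcripts only, the mean ratio was 4.11, against 2.43 ± 0.105 for all transcripts.

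That gap between the ratios follows from how the transcripts of Gjb6 were divided. Its complete form, Gjb6-201 of 261 amino acids, held 58.6% and 58.5% of the gene's TPM in the first table and 82.2% and 71.6% in the second. A noncoding transcript of 201 bases, Gjb6-203, held 25.4% and 22.8% in the first table on 29.2 and 25.9 counts, and was listed at 0 in the second. The retained-intron transcript Gjb6-204 held 14.9% and 11.4%, and 7.44% and 7.98% in the second table. In the second table the incomplete transcript Gjb6-202 stood at 5.76 and 13.3 TPM, so part of the difference in gene TPM there lies outside the complete form, which stood at 45.9 and 46.9 TPM.

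For Gja1 the tables differed in the place of the first exon. Complete transcripts held 99.0% and 99.3% of its TPM, and both code for the same length of 382 amino acids. The first table put this on Gja1-201, at 111.25 and 112.47 TPM, and listed Gja1-206 at 0. The second table gave Gja1-201 60.1 and 55.8 TPM and Gja1-206, which starts at another position, 111.8 and 116.7 TPM. Which start the Gja1 RNA used is therefore not settled by these tables.

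The other 10 genes for connexins, a pannexin and a junction partner had a median of 3.69 TPM, and 8 were detected. Tjp1, the scaffold protein ZO-1 that binds connexin 43, stood at 59.5 and 62.37 TPM. The channel protein Panx1 stood at 10.37 and 10.34 TPM and Gjc3, a connexin of oligodendrocytes, at 8.44 and 9.98 TPM. The lowest was Gja5, a connexin of arteries, at 0.21 and 0.48 TPM. No connexin of this list reached the level of Gjb6. Gjb2, connexin 26, stood at 2.52 and 2.39 TPM, and Gja1 was 44.6 and 47.4 times as high.

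Slc4a4 codes for NBCe1, the sodium bicarbonate cotransporter that carries bicarbonate across the astrocyte membrane. Its level was 50.56 TPM in replicate 1 and 51.12 TPM in replicate 2 (50.8 ± 0.396 TPM, rank 1881). The form of 1079 amino acids, Slc4a4-207, held 64.1% and 62.8% of the gene's TPM. The longest form, of 1094 amino acids, which lacks the 97 bases printed above, held 21.2% and 23.0% (22.1% ± 1.25). The second table gave 58.4% and 59.8% for the former and 24.9% and 27.7% for the latter. Both libraries and both tables thus gave more of the form with the 97 bases. Slc4a4-207 is annotated to 89239653 and Slc4a4-208 only to 89235794, so reads from beyond that point can only be assigned to the former.

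Transcripts whose first exon lies at the internal start of Slc4a4 are Slc4a4-203, Slc4a4-201 and the incomplete 780-base Slc4a4-204. Together they held 4.45% and 4.48% of the gene's TPM in the first table, on 74.2 and 51.5 of 7399 and 6801 expected counts. Their share was 11.8% and 9.77% in the second table, on 124 and 76.6 estimated counts. Transcripts with the upstream first exon held 88.0% and 86.4% in the first table, on 7299 and 6720 counts, and 88.2% and 90.2% in the second. Slc4a4-207, with the upstream start, is annotated to 89239653, and the transcripts with the internal start to 89234861 at most. Reads from beyond that point can only be assigned to the upstream start, so these shares do not settle how often each start was used. Most of the internal share was Slc4a4-204, at 1.48 and 1.90 TPM in the first table and 8.22 and 6.95 TPM in the second. The complete forms with the internal start, Slc4a4-203 and Slc4a4-201, held 1.52% and 0.763% in the first table on 49 and 21.6 counts. Slc4a4-203, the form of 1035 amino acids, had 10.4 counts in replicate 1 and 0 in replicate 2. Slc4a4-201, of 157 amino acids, held 1.27% and 0.763%. A form of 1070 amino acids, Slc4a4-202, was listed at 0 in both libraries in the first table and at 0.425% and 0% in the second. The incomplete 371-base transcript Slc4a4-206 held 7.59% and 9.12% on 26.2 and 29.2 counts, and was listed at 0 in the second table.

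Of 10 genes for bicarbonate transport and carbonic anhydrases, 9 were detected, with a median of 26.4 TPM. The sodium-coupled bicarbonate transporter of neurons, Slc4a10, stood at 82.27 and 90.66 TPM, above Slc4a4. Car2, carbonic anhydrase II, stood at 73.75 and 69.13 TPM and the anion exchanger Slc4a3 at 43.06 and 45.08 TPM. The lowest by mean was Slc4a5, another bicarbonate cotransporter, at 0.10 and 2.02 TPM.

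Aldh1l1 codes for the enzyme of folate metabolism that is used as a marker of astrocytes, and lies on chromosome 6 from 90486427 to 90600203 on the plus strand. It was the lowest of the 9, at 15.81 TPM in replicate 1 and 14.37 in replicate 2 (15.1 ± 1.02 TPM, rank 6186), on 1056 and 930 counts. Its main transcript Aldh1l1-201, of 902 amino acids, held 76.9% and 71.9%, and Aldh1l1-203, of the same length, 6.71% and 8.98%. A transcript marked for nonsense-mediated decay, Aldh1l1-207, held 1.45% and 9.53%, and the incomplete Aldh1l1-206 held 10.6% and 4.73%.

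In the second table the TPM of Aldh1l1 differed more between the libraries, at 37.2 and 20.8. There the complete forms stood at 20.0 and 18.5 TPM. The rest included Aldh1l1-205, a noncoding transcript of 472 bases with 7.74 TPM in replicate 1 and 0 in replicate 2, Aldh1l1-202, a noncoding one of 400 bases with 4.36 and 1.05 TPM, and Aldh1l1-206 with 4.16 and 0 TPM. These transcripts rested on 22.0, 8.80 and 17.2 estimated counts in replicate 1. The higher gene TPM of replicate 1 in that table therefore lay mostly on short transcripts with few reads.

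Among 10 other folate one-carbon enzymes, 8 were detected and the median was 5.56 TPM. Mthfd1, a cytosolic enzyme of the same pathway, stood at 16.78 and 17.9 TPM, close to Aldh1l1. Mthfs stood at 16.35 and 13.58 TPM. Ftcd had 1 count in replicate 1 and 0 in replicate 2.

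**Figure D3:**
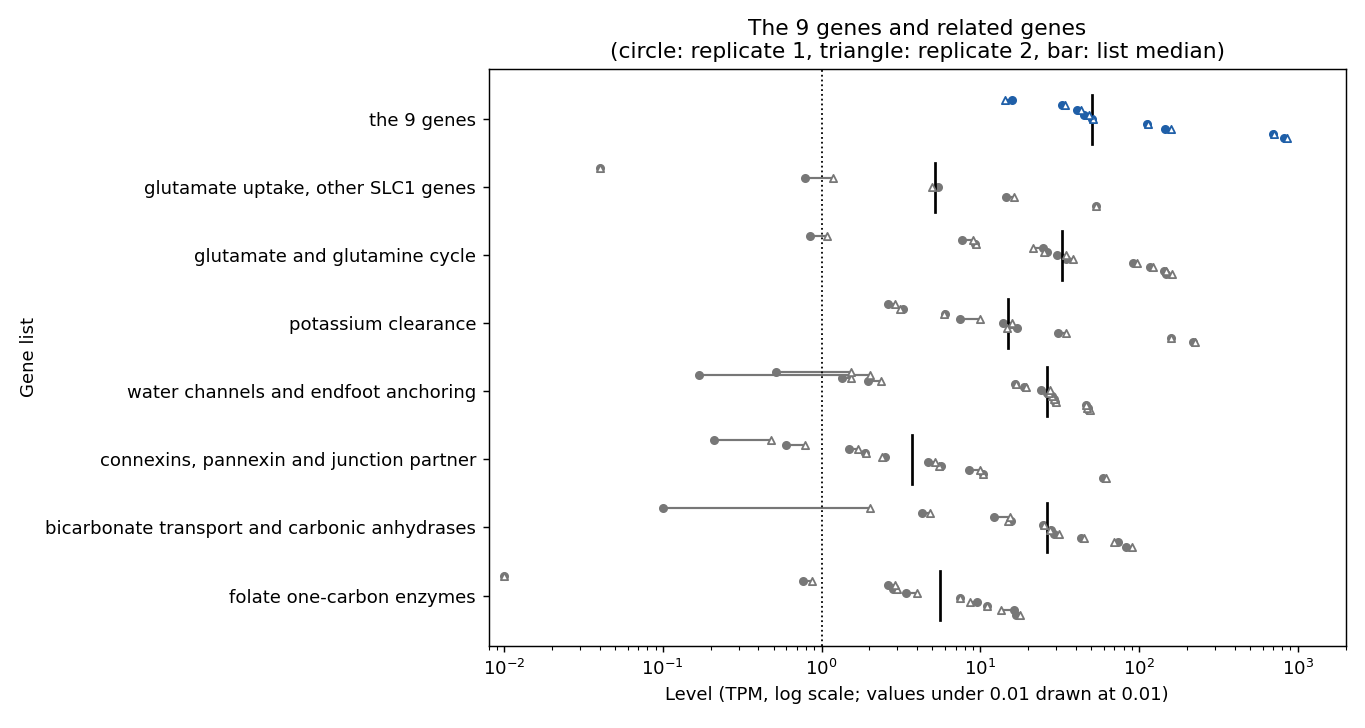
Level in TPM (log axis, values under 0.01 drawn at 0.01) of the 9 genes and of the genes of 7 related lists in replicate 1 (circles) and replicate 2 (triangles), joined by a line, with the median of each list as a bar and 1 TPM as a dotted line. The median of the 9 genes, 50.8 TPM, lies to the right of the median of each related list, which run from 3.69 to 32.5 TPM, and the long lines mark Aqp1, Trpv4 and Slc4a5.

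The share of a gene's TPM on complete coding transcripts ranged among the 9 from 58.5% for Gjb6 to 100% for Kcnj10, as the mean of the libraries in the first table. Over the 12660 detected protein-coding nuclear genes the median share was 83.5%, with quartiles at 63.0% and 97.1%. Kcnj10 and Gja1, the latter at 99.0% and 99.3%, lay above the upper quartile in both libraries and Gjb6 below the lower one. The place of Gjb6 was particular to the first table. In the second table the median over the same genes was 78.9%, with quartiles at 56.7% and 96.6%, and Gjb6 had 82.2% and 71.6%. In the first table Slc1a3 had 89.1% and 86.7% on complete transcripts, nearly all on Slc1a3-201 of 543 amino acids, and 9.84% and 12.7% on transcripts with a retained intron. Most of the latter was Slc1a3-204, of 469 bases, at 7.29% and 10.2%. In the second table the retained-intron share of Slc1a3 was 22.6% and 24.4%.

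**Figure D4:**
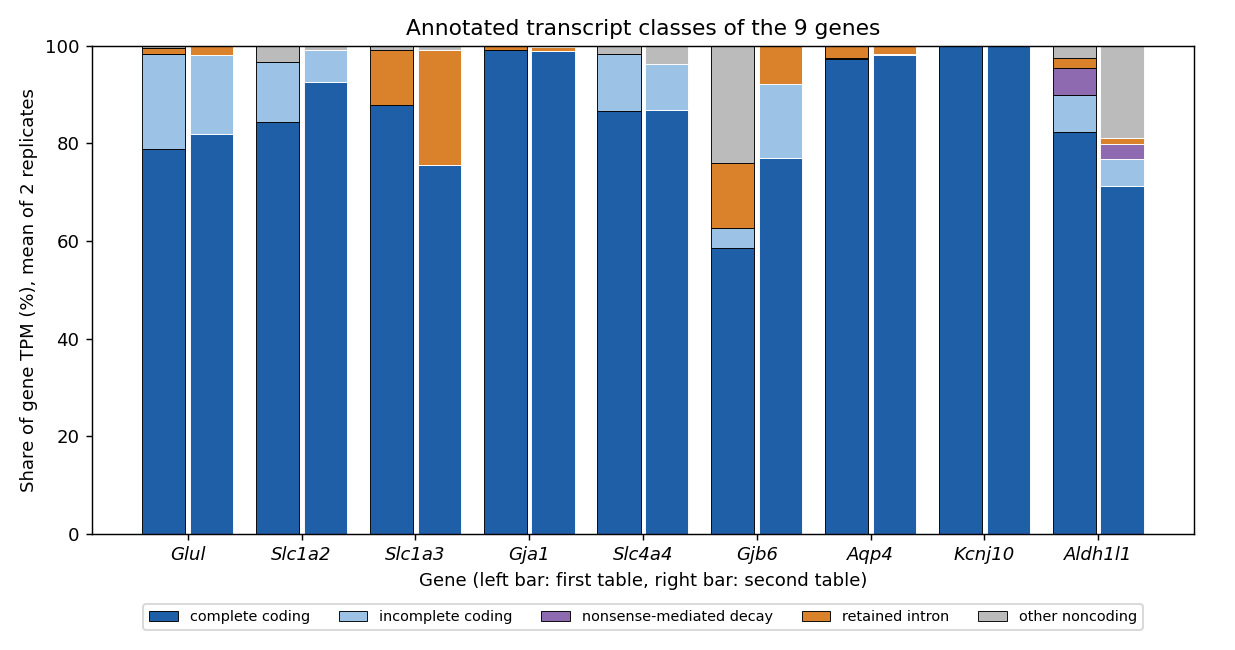
Share of each gene's TPM (%, mean of 2 replicates) by annotated class of transcript, with the first table as the left bar and the second table as the right bar of each gene. Kcnj10, Gja1 and Aqp4 are nearly all complete coding in both tables, while Gjb6, Slc1a3 and Aldh1l1 differ most between the tables.

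Overlapping genes of the annotation held few reads. Teddm2, on the strand opposite to Glul, had 46 and 37 counts, and Mir8114, which overlaps the start of Glul, 1 and 0. Gm37310 inside Slc1a3 had 55 and 40 counts, and AC133525.2, antisense to Aqp4, 12 and 12. At Aldh1l1, Gm45901 had 7 and 3 counts, Gm44236 1 and 0, and the antisense Gm15756 none, as did Gm13872, antisense to Slc1a2. Kcnj10, Gja1, Gjb6 and Slc4a4 overlapped no other annotated gene.

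The libraries were next compared gene by gene, as log2 ratios of replicate 2 to replicate 1 in expected counts scaled by TMM, with 95% Clopper-Pearson intervals that cover counting error only. None of the 9 genes differed by 1.2-fold or more (0 of 9). Of all 11418 genes with a mean of at least 5 CPM (counts scaled to library size), 419 did, which was 3.67%, with 169 higher and 250 lower in replicate 2. At this background share, a count of 0 among 9 genes is not a result about them. The ratio furthest from 0 was that of Aldh1l1, −0.11 (interval −0.24 to 0.02). Aqp4 stood at 0.05 (−0.02 to 0.12) and Slc4a4 at −0.05 (−0.09 to 0.00). For 7 of the 9 genes the interval held 0. The exceptions were Slc1a2, at 0.02 (0.01 to 0.03), and Slc1a3, at 0.04 (0.005 to 0.07), which have many counts and ratios that are small. The median distance from 0 over all tested genes was 0.0612, and 8 of the 9 lay within it.

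**Figure D5:**
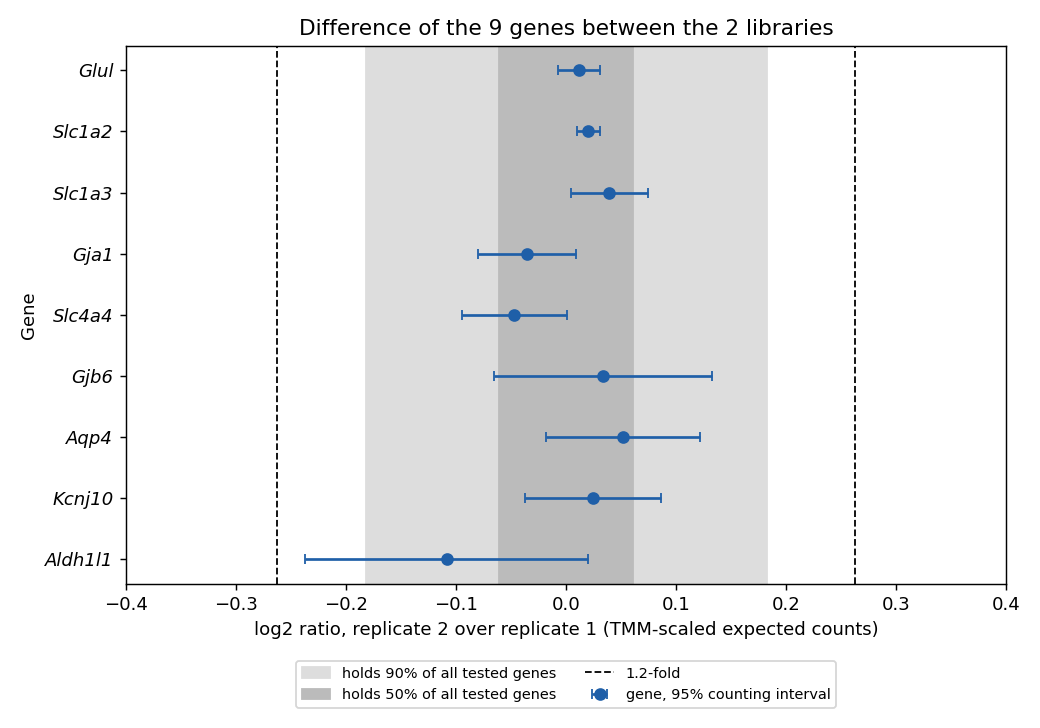
Log2 ratio of replicate 2 to replicate 1 for the 9 genes (points) with 95% intervals for counting error (bars), over the spans around 0 that hold 50% (dark grey) and 90% (light grey) of the 11418 genes tested, with 1.2-fold as dashed lines. Points of 8 genes lie in the dark span and that of Aldh1l1, at −0.11, in the light one.

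The scale of this comparison rests on the normalization. Scaled by the ERCC spike-ins instead, all 9 genes were lower in replicate 2, as was the median of all tested genes, at −0.17. Aldh1l1 then reached −0.29 and was the single gene of the 9 past 1.2-fold, while 18.5% of all tested genes were.

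In the 7 related lists 3 of 51 tested genes were past 1.2-fold, which is 5.88%, beside the 3.67% of all tested genes with the same TMM scaling. These were Slc4a2, an anion exchanger, at 12.15 and 15.42 TPM with a log2 ratio of 0.46, Sntb1, a syntrophin, at 1.97 and 2.37 TPM with 0.41, and Shmt2, the mitochondrial serine hydroxymethyltransferase, at 9.53 and 8.56 TPM with −0.29. Under the limit of 5 CPM, and singled out here after their values were seen, Aqp1 had 11 and 117 counts, Slc4a5 9 and 167, and Trpv4 30 and 94, all higher in replicate 2. Aqp1 is the water channel of the choroid plexus, the epithelium that makes cerebrospinal fluid.

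Markers of the choroid plexus moved the same way. The 8 markers summed to 38.9 TPM in replicate 1 and 709 TPM in replicate 2, all 8 were higher in replicate 2, and none was at 0 in either library. Ttr, the highest, stood at 29.91 and 672.41 TPM and Otx2, the lowest, at 0.27 and 2.36 TPM. The part of this tissue in the differences of Aqp1, Slc4a5, Trpv4 and Slc4a2 was not tested. The choroid plexus sum, most of it Ttr in each library, differed 18.2-fold between the libraries. Of these markers Kl differed least, at 4.6 and 9.27 TPM. The summed level of the 9 genes, 1954.52 and 2021.91 TPM, differed 1.03-fold.

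The 12 other astrocyte markers were all detected, and their summed level was 1550 TPM in replicate 1 and 1613 TPM in replicate 2. Past 1.2-fold were 0 of 12, beside the 3.67% of all tested genes, so nothing is read from that count. Clu was the highest at 384.47 and 406.24 TPM and the transcription factor Sox9 the lowest at 9.74 and 9.97 TPM. The median of these markers, 57.2 TPM, was close to the 50.8 TPM of the 9 genes in the first table. In the second table the medians were further apart, at 107 and 79.2 TPM. The hippocampal sample also held the other cell types of the tissue. Markers of neurons summed to 2885 and 3136 TPM, with Snap25 highest at 897.33 and 997.42 TPM and Elavl4 lowest at 26.17 and 22.25 TPM. Oligodendrocyte markers summed to 1416 and 1384 TPM, from Mbp at 703.75 and 664.92 TPM to Opalin at 3.69 and 3.35 TPM.

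Marker lists of the other cell types had lower medians. Markers of oligodendrocyte precursors had a median of 8.25 TPM, from Pdgfra at 12.52 and 12.83 TPM to Lhfpl3 at 5.1 and 5.2 TPM. Microglial markers had a median of 14.5 TPM, and the lowest, Itgam, stood at 4.33 and 4.34 TPM. The endothelial median was 7.59 TPM, from Ly6c1 at 23.58 and 26.92 TPM to Tek at 2.52 and 2.66 TPM. Neural stem cell and radial glia markers had a median of 8.96 TPM, from Hopx at 33.47 and 35.79 TPM to Eomes at 0.06 and 0 TPM. Meningeal fibroblast markers had a median of 2.43 TPM, from Igf2 at 16.82 and 29.07 TPM to Slc22a6 at 0.62 and 0.41 TPM, and ependymal markers one of 1.68 TPM, from Rsph1 at 6.07 and 6.51 TPM to Ak7 at 0.66 and 0.80 TPM. Several of the 9 genes are known from such cells too, Aqp4 from ependyma and Slc1a3 and Gja1 from radial glia.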

How the data were processed

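Total RNA of hippocampal tissue was sequenced in 2 libraries, which the labels put in a single group by strain, sex, age and tissue. Per the notes deposited with the tables, the assembly was mm10 and the annotation GENCODE M21. Which tools and versions were used is not given in the sources used here. The deposited gene table and first transcript table have RSEM's column layout, with an expected count and TPM for each feature. The alignment-free transcript table has kallisto's layout, with an estimated count and TPM, per the file headers. The authors also deposited each transcript's percent of its gene and a score for the spread of the expected count, its posterior SD. For the count of a gene this was 0 for 8 of the 9 genes and 9.61 and 9.13 for Glul. For a single transcript it could be large beside the count. Slc1a2-204 had 286 and 283 on 696 and 168 counts, and Slc1a2-201 had 273 and 280 on 1398 and 1824 counts. Whether counting used strand is not stated, so genes on opposite strands are uncertain. The assembly represents C57BL/6J, so CAST/EiJ reads can align less well.

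Replicate 1 held 34563482 expected counts over the 55536 genes and replicate 2 held 32370292. ERCC rows, which took 0.418% and 0.479% of counts, and other rows that name no gene stayed out of library sizes. The members and gene lists were chosen with earlier results of these data known. One list gene, Pc, was matched as Pcx, an older symbol in RefSeq's table. Levels are deposited TPM; detection meant at least 1 TPM in both libraries. Genes named are the 9 members, in each related list the 3 highest and the lowest and those past 1.2-fold, in each marker list the highest and the lowest, and transcripts with at least 5% of a member's TPM in either table, of which the main ones are given; some genes that this rule names are not reported here. Transcript classes, protein lengths and sequences come from the GENCODE M21 annotation and transcripts. Expected counts were rounded and scaled by TMM in edgeR 4.0.16 (R 4.3.3), with a prior count of 0.5 and a minimum mean of 5 CPM for the comparison of libraries. Intervals are 95% Clopper-Pearson; without molecular identifiers reads are not independent, so intervals cover counting error only, and a count of 0 allows up to 3 counts. Each library difference sets 1 sample against 1, so it has no test. The other steps used scipy 1.17.1, numpy 2.4.6 and pandas 2.3.3 in Python 3.11.15. The scaling and ratio steps were tested on simulated data. Alternatives were the second table, rescaled TPM, posterior-mean TPM, counts without length correction, complete coding transcripts only, spike-in scaling, size factors from DESeq2 1.42.0, other minimum levels and folds, and leaving out each replicate.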

Additional observations from a re-analysis of the deposited data

How the results depend on the processing

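With 2 libraries in 1 group, precision rests on a single pair of values, and no setting below has a test. The median level of the 9 genes was 79.2 TPM in the second table, 122 TPM rescaled over protein-coding nuclear genes and 49.75 as posterior-mean TPM. In the second table the ratio of Slc1a2 to Slc1a3 was 3.39, of Gja1 to Gjb6 2.89, of Slc1a2 to Glul 0.810, of Kcnj10 to Aqp4 0.688 and of Gja1 to Gjb2 43.6. Expected counts without length correction gave 10.6, 4.91, 3.24, 1.29 and 59.3 for the same ratios, and 6.24 for Kcnj10 to Kcnj16. Thus Slc1a2 against Glul and Kcnj10 against Aqp4 changed places by counts, which follow transcript length. Complete coding transcripts only gave 4.11 for Gja1 to Gjb6, 0.902 for Slc1a2 to Glul and 0.820 for Kcnj10 to Aqp4, and posterior-mean TPM gave 0.792 for the last. The Aqp4 share of 301 amino acids was 44.4% in the second table and 12.6% of counts. The Slc4a4 share of 1094 amino acids was 26.3% in the second table, 12.9% of counts and 25.5% of complete coding transcripts, and the Slc1a2 share of 572 amino acids was 79.2%, 96.1% and 83.3%. Spike-in scaling put 1 of the 9 genes past 1.2-fold. All genes past the fold then came to 2113 of 11418, against 962 with rescaled TPM, 2054 at 1.1-fold and 38 at 1.5-fold among the same genes. Other minimum levels changed the number of genes tested too, with 11363 of 27281 past 1.2-fold without one and 1743 of 14887 at 1 CPM. Leaving out either replicate moved the level of each of the 9 genes to between 0.952 and 1.05 times its mean.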
